A study of Saccharomyces cerevisiae with 18 samples.

Results

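The transcripts described here are those of 39 genes of the ubiquitin-proteasome system of *Saccharomyces cerevisiae*: the 33 structural subunits of the proteasome, the transcription factor gene *RPN4*, the assembly and stability factors *UMP1* and *ECM29*, the polyubiquitin gene *UBI4*, and *CDC48* and *UFD1*. They were listed by name, from the known composition of the complex and genes that act with it, with no threshold on a measured value, although earlier results of these data were known when the list was made. All 39 had at least 1 probe set assigned to a single gene symbol, out of 5656 genes measured this way, and where a gene had several, the one with the highest mean stood for it. No member had a mean log2 intensity under 3.40, the level below which the dimmest genes were left out in an alternative.

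The proteasome degrades proteins tagged with ubiquitin. Its barrel-shaped 20S core is built of rings of α subunits, which gate the entrance, and β subunits, some of which carry the proteolytic sites. The 19S regulatory particle caps the core, and its base of ATPases unfolds substrates while its lid removes ubiquitin. Rpn4 is the yeast transcription factor that binds the promoters of most proteasome genes. It is itself a short-lived substrate of the proteasome, which forms a feedback loop between proteasome activity and subunit transcription, and *RPN4* is known as a gene that responds to DNA damage and other stresses in yeast.

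RNA was measured on Affymetrix YG-S98 oligonucleotide arrays, 18 in all, 1 for each of 3 biological replicates in 6 groups. Every culture was the haploid strain DBY747 in rich medium (YPD) in mid-log phase. For 15 min, cells received calicheamicin (1 nM), esperamicin A1 (3 nM) or neocarzinostatin (4 nM), enediyne antibiotics that cut the DNA sugar backbone, each supplied in methanol. Another group received 210 Gy of γ-radiation. The controls were cells given methanol alone, for the enediynes, and cells labelled as mock irradiated, for γ-radiation. The labels give the exposure time of the enediynes and a lethality of 20 to 25% for the treatments, and the study's methods give the concentrations, the radiation dose and the mating type *MAT*a. Concentrations were thus chosen for equal killing and differ between the enediynes. RNA was taken at 1 time only, for the irradiated cells after a short further incubation at ambient temperature, and from whole cultures, so that less transcript in every cell and fewer cells with the transcript cannot be told apart.

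The a-mating genes *MFA1*, *MFA2* and *STE2* read 695 to 1817, 1165 to 1819 and 35.9 to 113 intensity units, whereas the α-mating genes *MF(ALPHA)1*, *MF(ALPHA)2* and *STE3* read at most 22.1, 17.2 and 20.7, near the array medians of 15.3 to 16.8. Methanol replicate 1 stood apart: the log2 difference between its 5' and 3' actin control probe sets was -3.59, against -2.34 to -0.69 on the other arrays, and its mean correlation with the other methanol arrays over all genes was 0.958. This measure of RNA integrity was also lower on the esperamicin arrays (-2.34, -1.86 and -1.53) than on the γ-radiation and mock arrays (-0.80 to -0.69). On a second such control, *SPT15*, methanol replicate 1 was lowest (-4.40), but esperamicin replicate 3 was near it (-4.19). All arrays with methanol or an enediyne lay between -4.40 and -2.36 on *SPT15*. The γ-radiation and mock arrays lay between -2.86 and -2.26, above most of them. Medians, calls and the named members in comparisons with methanol are also given without methanol replicate 1, singly where they moved by over 1.5 times. Intensities of different probe sets have no common scale, so all comparisons are within a gene.

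After γ-radiation, no single member passed the threshold of a 1.5-fold change at an adjusted p of 0.10, but most lay above the mock-irradiated level by a small amount, and the 20S core did so as a whole. Each gene's log2 value was set against its own mean over the 18 arrays. The median of the 14 core genes was 0.66, 0.40 and 0.42 on the γ-radiation arrays, against 0.12, 0.27 and 0.00 on the mock arrays. Every γ-radiation array was above every mock array. For the 19 genes of the regulatory particle the medians were 0.30, 0.17 and 0.31 on the γ-radiation arrays, against 0.04, 0.19 and 0.22 on the mock arrays, and the groups overlapped. The median of all genes was 0.04, -0.02 and -0.07 on the γ-radiation arrays and 0.03, 0.04 and -0.02 on the mock arrays.

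**Figure D1:**
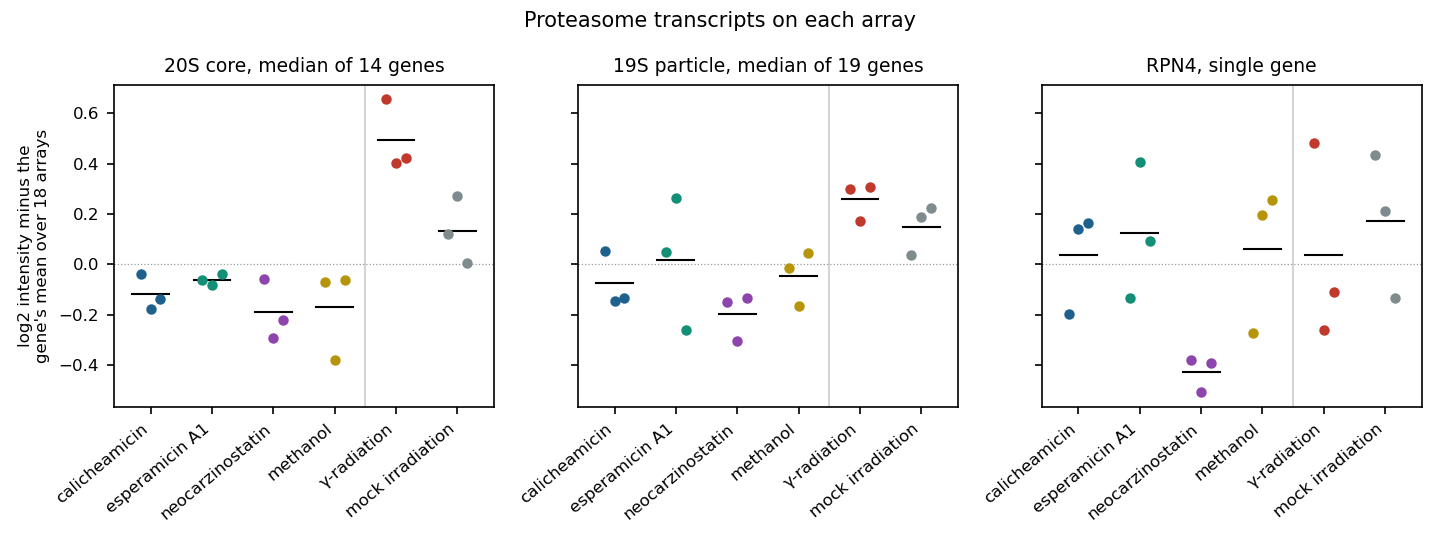
Points are single arrays and bars the mean of 3 arrays in each of the 6 groups; the y axis is the log2 intensity minus the gene's own mean over 18 arrays, as a median over the 20S core, over the 19S particle, or for *RPN4* alone. The core reaches 0.40 to 0.66 on the γ-radiation arrays and 0.00 to 0.27 on the mock arrays, whereas the 19S particle and *RPN4* overlap between these groups.

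Of the 4 members with the smallest p-values after γ-radiation, 3 belong to the α ring and the other, *RPT1*, to the base. *PRE5* (YMR314W), an α subunit, read 277, 278 and 285 intensity units after γ-radiation and 187, 195 and 171 after mock irradiation. The difference was 0.61 on the log2 scale (SE 0.18, limma), a 1.52-fold higher mean with no overlap, but its p of 0.00421 became an adjusted p of 0.259 over all genes. *PRE6* (YOL038W) read 391, 335 and 352 units after γ-radiation and 218, 300.5 and 237 after mock irradiation, again without overlap (0.52, SE 0.18, limma adjusted p = 0.360). *PRE10* (YOR362C) read 272, 238 and 227 units after γ-radiation, against 185, 201 and 179 after mock irradiation. These arrays also did not overlap, and the log2 difference was 0.38 (SE 0.15, limma adjusted p = 0.457). The other α genes, *PRE8*, *PUP2*, *SCL1* and *PRE9*, had log2 differences of 0.34, 0.33, 0.22 and 0.11, and only *PRE8* separated the groups. *PRE9* is the one α subunit that yeast can live without.

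All 7 β-ring genes also lay above 0, between 0.24 and 0.54, with a median of 0.33. The 3 β subunits with proteolytic sites were *PRE3*, *PUP1* and *PRE2*, with log2 differences of 0.42 (SE 0.17), 0.54 (SE 0.23) and 0.33 (SE 0.20). *PUP1* (YOR157C), which encodes the trypsin-like subunit, read 415, 361 and 369 units after γ-radiation and 286, 315 and 202 after mock irradiation, so that the mock arrays varied more. *PRE3* (YJL001W) read 380, 356 and 317 units after γ-radiation, against 260, 274 and 252 after mock irradiation. Both separated the groups, and neither passed the test (limma adjusted p = 0.531 and 0.464). *PRE3* has 2 further probe sets, which gave 0.68 and 0.42 and were not called either (limma adjusted p over all probe sets = 0.707 and 0.88). The non-catalytic β genes *PUP3*, *PRE1*, *PRE7* and *PRE4* had differences of 0.35, 0.30, 0.28 and 0.24.

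In the regulatory particle, the 6 ATPases of the base had a median log2 difference of 0.20, all above 0. *RPT1* (YKL145W) led them, with 323, 271 and 280 units after γ-radiation and 228, 215 and 222 after mock irradiation. The mock arrays lay close together and all were below the γ-radiation arrays (0.39, SE 0.14, limma adjusted p = 0.372). *RPT6*, *RPT4* and *RPT5* had differences of 0.24, 0.22 and 0.19, and *RPT3* and *RPT2* of 0.06 and 0.01. The further probe sets of *RPT5* gave 0.47, 0.38 and 0.02. Among the scaffold and ubiquitin receptor genes, *RPN13*, a receptor for ubiquitin chains, had 0.47 (SE 0.27) and separated the groups, *RPN1* had 0.24, *RPN10*, another receptor, had 0.06 and *RPN2* had -0.01.

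Of the subunit groups, the lid had the median closest to 0. Of its 9 genes, 5 were above 0 and 4 below, with a median of 0.09. *RPN11*, the deubiquitinating enzyme that cuts chains from substrates, read 161, 183 and 222 units after γ-radiation and 155, 183 and 231 after mock irradiation, a log2 difference of -0.00 (SE 0.18). *RPN3* had the lowest value of all members, -0.25 (SE 0.16, limma adjusted p = 0.706). *RPN7* and *SEM1* were the highest of the lid, at 0.24 and 0.22. Neither the lid nor its single genes separated γ-radiation from mock irradiation.

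*RPN4* (YDL020C) itself was not higher after γ-radiation. It read 75.9, 45.3 and 50.3 units on the γ-radiation arrays, against 73.5, 63.0 and 49.5 on the mock arrays. The ranges overlapped almost fully, and the log2 difference was -0.13 (SE 0.21, 95% interval -0.58 to 0.31, limma adjusted p = 0.924). Without γ-radiation replicate 2 it was 0.01. *UMP1*, which assists maturation of the core, read 85.9, 84.6 and 95.3 units after γ-radiation and 70.4, 81.9 and 86.6 after mock irradiation (0.16, SE 0.17).

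*ECM29*, a tether between core and regulatory particle, had 0.55 (SE 0.31), with no overlap. Its representative is 1 of 8 probe sets, with a suffix that marks probes shared between sequences. The brightest of its probe sets with a plain suffix gave 0.40, and the others lay between -0.06 and 0.58. *CDC48*, the segregase that extracts ubiquitinated proteins for the proteasome, read 466, 402 and 380 units after γ-radiation and 321, 320 and 307 after mock irradiation. The arrays separated (0.39, SE 0.19, limma adjusted p = 0.585). *UBI4* and *UFD1*, a partner of Cdc48, had 0.28 (SE 0.19) and 0.13 (SE 0.21) with overlap. *UFD1* read 11.7 to 21.4 units over all arrays, near the array medians and in the range of the α-mating genes. Its value therefore cannot show a lack of change.

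**Figure D2:**
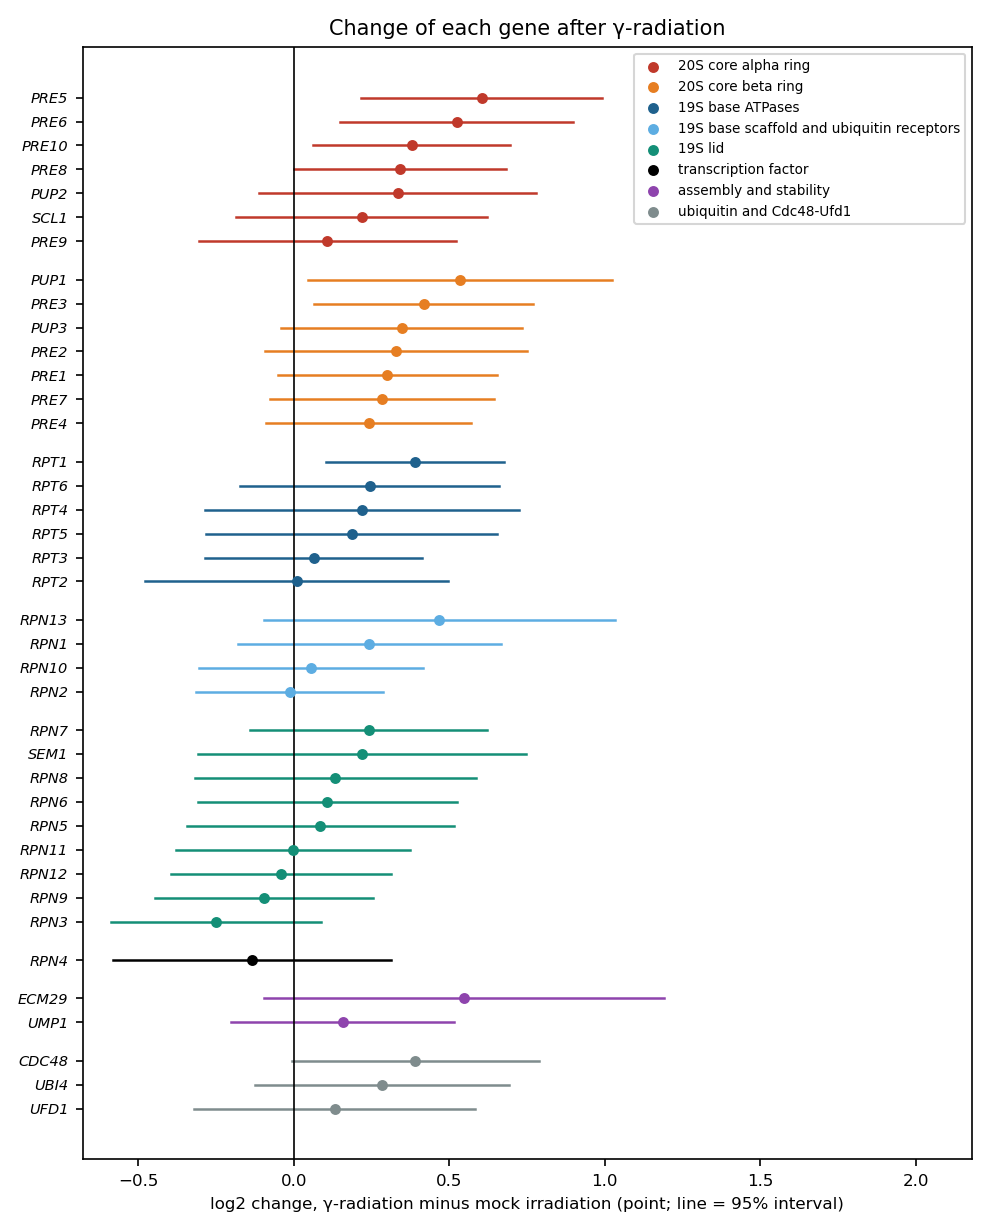
Each point is the log2 change of 1 gene, γ-radiation minus mock irradiation, with its 95% interval from limma as a line, and colours and gaps mark the roles. All 14 core genes lie above 0 (0.11 to 0.61), the lid straddles 0, and *RPN4* lies at -0.13.

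By count, 0 of the 39 members were called after γ-radiation by limma, where 51 of the 5656 genes (0.902%) were called in either direction. Over all genes, limma called 0.46% higher and 0.442% lower. The local pooled error test also called 0 members. Its share over all genes is not given here, so that count is not read as a result about the members. At an unadjusted p under 0.05, 7 members were higher (*PRE5*, *PRE6*, *RPT1*, *PRE10*, *PRE3*, *PUP1* and *PRE8*) and 0 lower, against 3.84% of all genes higher and 4.86% lower. The arrays did not overlap for 13 members, all higher, whereas 6.17% of all genes separated upwards and 8.57% downwards. In all, 33 of 39 members had a log2 change above 0, compared with 43.2% of all genes, and the members' median was 0.24 (range -0.25 to 0.61) against -0.04 over all genes. With replicate number entered as a blocking factor, separately for irradiation and methanol arrays, 129 genes (2.28%) and still 0 members were called, with *PRE6* nearest (adjusted p = 0.156). Members are read from the same arrays, so these counts are not independent observations.

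Against methanol, 0 members were called for calicheamicin, esperamicin A1 or neocarzinostatin by limma, where 0% of all genes were called for each. The local pooled error test also called 0 members. Its shares over all genes are not given here, so those counts are not read as results about the members. All of these comparisons share the methanol arrays. The members' medians were 0.01, 0.08 and -0.12, beside 0.05, 0.04 and 0.04 over all genes, and 21, 26 and 14 of 39 members were above 0, beside 58.7%, 59.5% and 56.9% of all genes. Without methanol replicate 1 the medians were 0.02, 0.01 and -0.08. That of neocarzinostatin was nearest 0 without methanol replicate 3 (-0.05) or neocarzinostatin replicate 2 (-0.06). The core medians by array were -0.04, -0.18 and -0.14 for calicheamicin, -0.06, -0.08 and -0.04 for esperamicin A1, and -0.06, -0.29 and -0.22 for neocarzinostatin, against -0.07, -0.38 and -0.06 for methanol. Each treated group overlapped the methanol arrays.

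For calicheamicin, 2 members had an unadjusted p under 0.05, both higher (2.51% of all genes), and they also separated the groups, against 5.91% of all genes that separated upwards. *PRE8* read 262, 211 and 234 units with calicheamicin, against 138, 198 and 210 with methanol (0.39, SE 0.16, limma adjusted p = 0.923). Its groups separated by a very small margin, 210.6 against 210.2 units. *RPT1* read 240, 195 and 199 units with calicheamicin and 174, 182 and 161 with methanol (0.29, SE 0.14, limma adjusted p = 0.923). The next smallest p-values were those of *UBI4* (0.34, SE 0.19) and *RPT5* (0.39, SE 0.22), whose groups overlapped. The further probe sets of *RPT5* gave 0.62, 0.96 and 0.07. Methanol replicate 1 was the lowest methanol array for *PRE8*, *UBI4* and *RPT5*, and without it they had 0.20, 0.23 and 0.095, whereas *RPT1* had 0.30. *RPN4* read 47.4, 59.9 and 60.9 units with calicheamicin, against 45.0, 62.2 and 64.9 with methanol, a difference of -0.02 (SE 0.21).

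For esperamicin A1, *RPN10* was the one member with an unadjusted p under 0.05, where 2.14% of all genes were higher at that level. It read 209, 181 and 217 units with esperamicin A1 and 200, 115 and 154 with methanol, which overlapped (0.40, SE 0.17, limma adjusted p = 0.999). *SCL1* (-0.34, SE 0.19), *RPN2* (0.22, SE 0.14) and *UBI4* (0.28, SE 0.19) came next. Without methanol replicate 1, *RPN10* had 0.60 (limma adjusted p = 0.191) with no overlap, and *UBI4* 0.16. With all arrays kept, of all members only *UBI4* separated the groups, where 4.83% of all genes did so upwards. The margin was very small, with the lowest esperamicin array at 52.95 units and the highest methanol array at 52.88. *RPN4* read 49.6, 72.0 and 58.0 units with esperamicin A1 (0.06, SE 0.21). With methanol replicate 1 left out 1 member was called, *ECM29* (-0.85, limma adjusted p = 0.0900), on a probe set whose probes are shared. On it that array read 11.7 units, against 34.1 and 39.8 on the other methanol arrays. With all arrays kept, this probe set had -0.30 and the brightest *ECM29* probe set with a plain suffix 0.16. The other *ECM29* probe sets lay between -0.19 and 0.37, on both sides of 0. They were not fitted without that array. The total over all genes without that array is not given here, so the call of *ECM29* is not read as a result about the members.

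Of the enediynes, neocarzinostatin gave the widest spread among members against methanol, and the lowest *RPN4* readings of the series. *RPN4* read 41.8, 38.2 and 41.4 units with neocarzinostatin, against 45.0, 62.2 and 64.9 with methanol. These 3 arrays were the lowest of all 18. The difference was -0.49 (SE 0.21, 95% interval -0.93 to -0.04) with a limma adjusted p of 0.577. Without methanol replicate 1 it was -0.65 (limma adjusted p = 0.649), and over all alternatives it lay between -0.65 and -0.39.

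The smallest p-values with neocarzinostatin ran in both directions, with 3 members higher and 3 lower at an unadjusted p under 0.05 (5.62% and 2.58% of all genes). *PRE9* read 93.1, 78.1 and 78.1 units with neocarzinostatin, against 177, 111 and 112 with methanol, below every methanol array (-0.65, SE 0.20, limma adjusted p = 0.514). The highest of these, 177, was methanol replicate 1. *PRE8* read 276, 267 and 233 units with neocarzinostatin and 138, 198 and 210 with methanol, above every methanol array (0.52, SE 0.16, limma adjusted p = 0.524). *RPT1* (0.39, SE 0.14) and *UBI4* (0.51, SE 0.19) also separated upwards, and *RPT4* (-0.60, SE 0.24) and *CDC48* (-0.34, SE 0.19) downwards. *RPN4* also lay below every methanol array. Together these were 3 members separated upwards and 4 downwards, where 7.39% and 4.07% of all genes separated. Without methanol replicate 1, *PRE9* had -0.43 and *PRE8* 0.34 (limma adjusted p = 0.689 for each), and the other 4 moved by less than 1.5 times, *UBI4* to 0.39 and *RPT4* to -0.49. All 9 lid genes lay below 0, with a median of -0.21 and a range of -0.35 to -0.03, and none separated the groups.

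**Figure D3:**
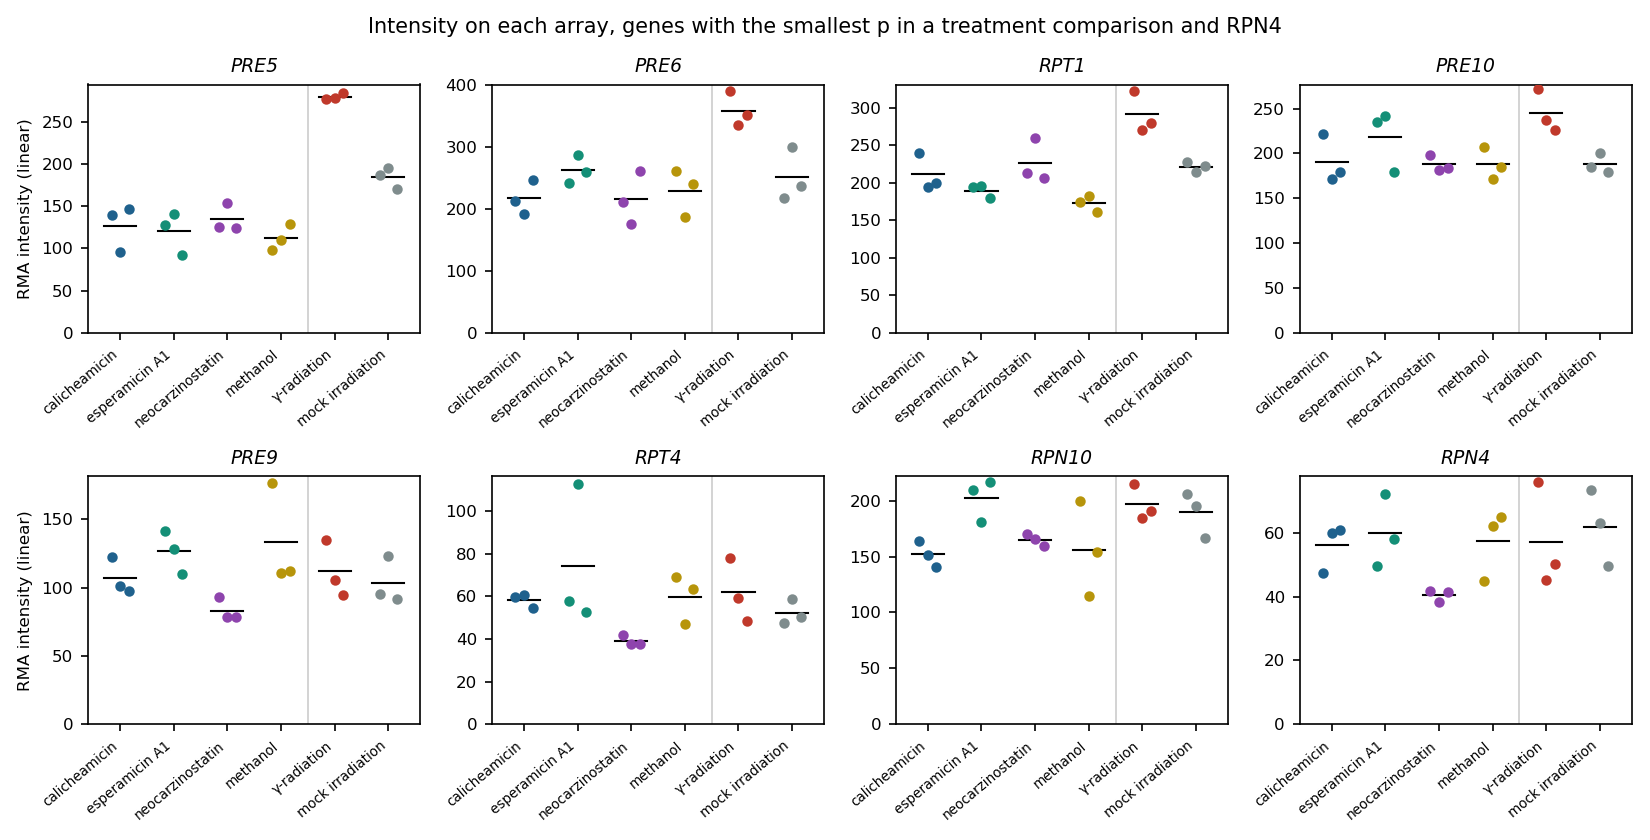
Linear RMA intensity of 8 members on each array (points) with the mean of 3 arrays (bars), in the 6 groups. *PRE5*, *PRE6*, *RPT1* and *PRE10* have their highest group mean after γ-radiation, and *RPN4* and *PRE9* their lowest with neocarzinostatin, where *RPN4* lies at 38.2 to 41.8.

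A methyl trisulfide triggers both calicheamicin and esperamicin A1, whose enediyne rings are alike, whereas the neocarzinostatin chromophore has a different ring and no trisulfide. The 3 agents were compared in 3 pairs, at unequal concentrations. No member was called in any pair, where 0% of genes were called in each. The differences of 38, 38 and 35 of the 39 members had a 95% interval inside 2-fold for calicheamicin minus esperamicin A1, calicheamicin minus neocarzinostatin and esperamicin A1 minus neocarzinostatin, and 25, 26 and 20 had one inside 1.5-fold. The smallest p was that of *RPT4*, which read 57.6, 113 and 52.7 units with esperamicin A1 and 41.8, 37.8 and 37.6 with neocarzinostatin (0.84, 95% interval 0.34 to 1.35, limma adjusted p = 0.569). *RPN4* was 0.55 higher on the log2 scale with esperamicin A1 than with neocarzinostatin (95% interval 0.10 to 0.996, limma adjusted p = 0.626) and 0.46 higher with calicheamicin than with neocarzinostatin (0.01 to 0.91, limma adjusted p = 0.9995).

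Ordered by mean log2 intensity over all 6 groups, *RPN4* stood at 5.93 after mock irradiation, 5.89 with esperamicin A1, 5.82 with methanol, 5.80 after γ-radiation, 5.80 with calicheamicin and 5.34 with neocarzinostatin. The SD within a group was 0.07 for neocarzinostatin and 0.20 to 0.39 for the others. The first 5 groups lay within the spread of their arrays. Leaving out methanol replicate 1 changed the sign of differences near 0 or their size: *RPN4* then had -0.19 with calicheamicin and -0.10 with esperamicin A1 against methanol, and 0.055 with methanol against mock irradiation. None of these passed the test.

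With all arrays kept, the only calls of members, and the largest single difference, lay between the control groups. Cells given methanol were compared with mock-irradiated cells, and 7 of 39 members fell, with 0 higher. Over all genes 491 (8.68%) were called, 5.59% lower and 3.09% higher. The members were *UMP1*, *PRE8*, *UBI4*, *PRE5*, *PRE7*, *SCL1* and *RPT3*: 4 core subunits, an ATPase, the assembly factor and polyubiquitin. In all, 35 members lay below 0 (4 above, against 44.3% of all genes above), with a median of -0.26 beside -0.05 over all genes. Under cyclic loess normalization, 12 members lay above 0, the median was -0.15, and the calls were *UMP1*, *PRE8* and *UBI4*. With these 2 groups fitted alone, the one call was *UMP1* (limma adjusted p = 0.0629). Totals over all genes in these 2 settings are not given here. The groups did not overlap for 14 members, all lower, where 14.3% of all genes separated downwards and 8.75% upwards. The control groups differ in the solvent and in the handling that goes with each treatment, and these cannot be told apart. The *SPT15* 5' to 3' difference was -4.40, -3.13 and -3.02 on the methanol arrays. On the mock arrays it was -2.53, -2.70 and -2.26. The part of this difference in the calls was not tested.

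*UMP1* (YBR173C) differed most. It read 28.5, 37.6 and 41.4 units with methanol, against 70.4, 81.9 and 86.6 after mock irradiation, 2.24-fold lower (-1.16, SE 0.17, limma adjusted p = 0.00103). All 12 arrays of cells that received methanol, with or without an enediyne, read 28.5 to 44.8 units, and the 6 arrays of irradiated and mock-irradiated cells read 70.4 to 95.3. *PRE8* (YML092C), an α subunit, read 138, 198 and 210 units with methanol and 310, 335 and 292 after mock irradiation (-0.80, SE 0.16, limma adjusted p = 0.00902). *UBI4* (YLL039C), which supplies ubiquitin under stress, read 38.8, 46.4 and 52.9 units with methanol and 59.3, 88.8 and 88.2 after mock irradiation. It fell by 0.76 on the log2 scale (SE 0.19, limma adjusted p = 0.0278).

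*PRE5* read 98.5, 110 and 129 units with methanol, against 187, 195 and 171 after mock irradiation (-0.72, SE 0.18, limma adjusted p = 0.0278). *PRE7* (YBL041W), a β subunit, read 104, 127 and 128 units with methanol, against 159, 205 and 193 after mock irradiation (-0.64, SE 0.17, limma adjusted p = 0.0357). In both the methanol arrays lay well below the mock arrays. *RPT3* (YDR394W), an ATPase, read 46.6, 47.4 and 48.5 units with methanol, against 76.4, 69.3 and 68.9 after mock irradiation (-0.59, SE 0.17, limma adjusted p = 0.0409). *SCL1* (YGL011C), an α subunit, had the least certain call, with 135, 103 and 143 units with methanol and 187, 204 and 188 after mock irradiation (-0.62, SE 0.19, limma adjusted p = 0.0622). None of these groups overlapped. *RPN4* did not share the difference: 45.0, 62.2 and 64.9 units with methanol and 73.5, 63.0 and 49.5 after mock irradiation gave -0.11 (SE 0.21, limma adjusted p = 0.796).

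**Figure D4:**
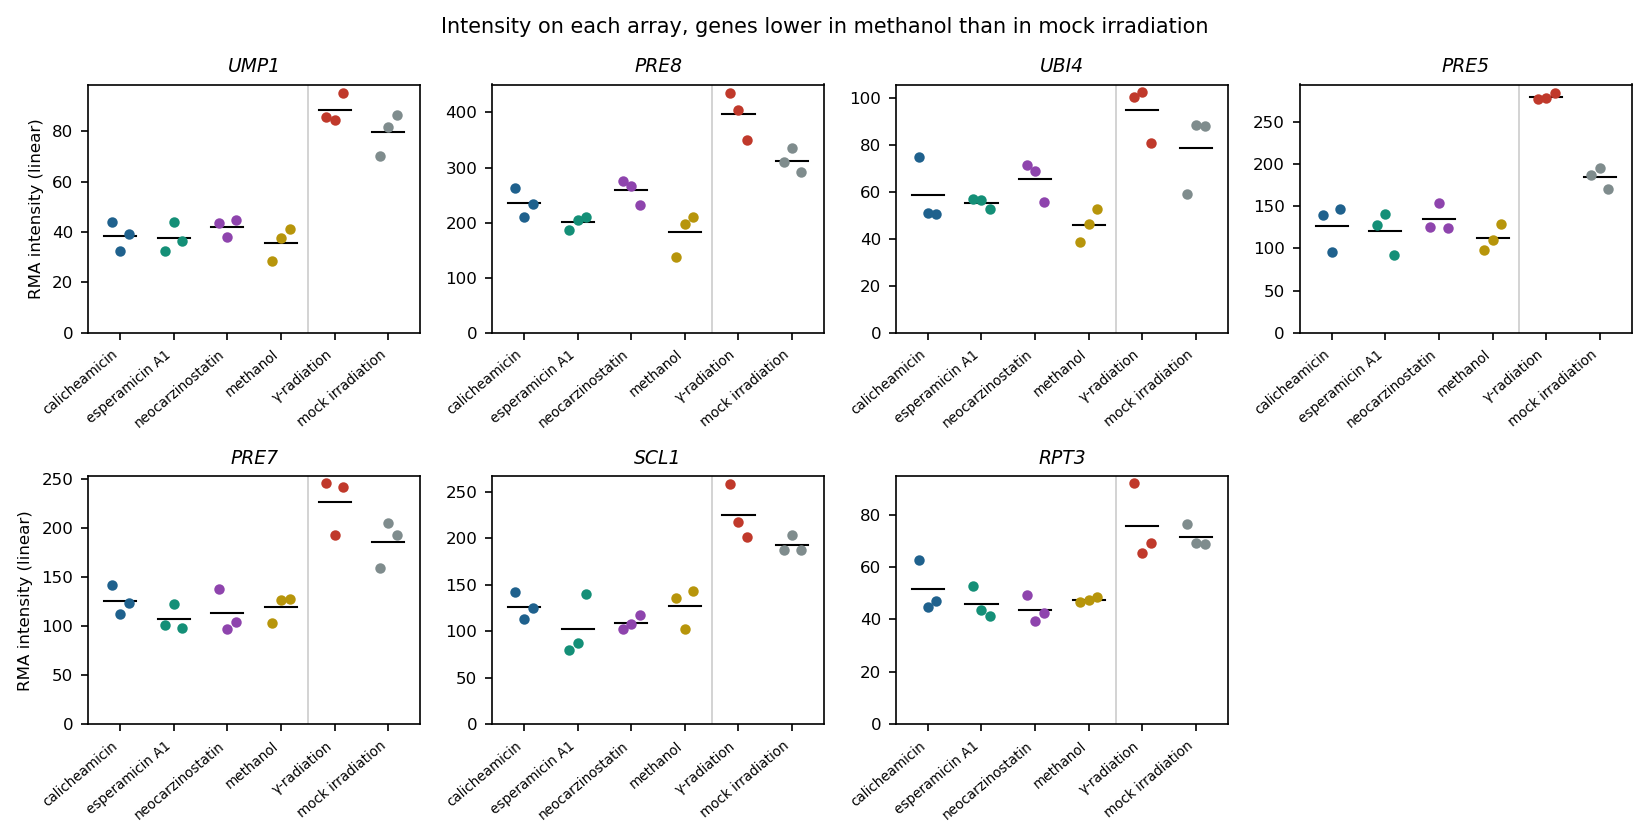
Linear RMA intensity of the 7 members called lower with methanol than after mock irradiation, on each array (points) with the mean of 3 arrays (bars), in the 6 groups. In every panel the methanol arrays lie below the mock arrays, and for *UMP1* all arrays with methanol or an enediyne lie at 28.5 to 44.8 units, below the 70.4 to 95.3 units of the irradiation arrays.

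Without methanol replicate 1, 5 of the 7 calls remained (*UMP1*, *PRE8*, *PRE5*, *SCL1* and *UBI4*) and the members' median was -0.27. That median was -0.13 without methanol replicate 2, and without mock replicate 2 the calls were 4 (*UMP1*, *PRE8*, *PRE5* and *RPT3*). With the actin difference as a covariate the one remaining call was *UMP1*. The local pooled error test called 0 members and 153 genes, where limma with all arrays called 491 genes. Totals over all genes with an array left out or with the covariate are not given here. The fall in calls is thus not read as particular to the members. The further probe sets of 3 members gave other values than the brightest one. For *PRE3* they gave -1.15 and -1.33 in place of -0.26, and neither has a plain suffix. Both were called when each probe set was tested, but the share of all probe sets called is not given here. For *RPT5* they gave between -0.40 and -1.27 in place of -0.43. For *ECM29* the brightest probe set with a plain suffix gave 0.33 in place of -0.50.

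The effect of γ-radiation on each member was set against the mean effect of the 3 enediynes in an interaction contrast. The members' median difference was 0.25, beside -0.08 over all genes, and 32 of 39 were above 0, where 40.3% of all genes were. Of the core, 13 of 14 were above 0, with a median of 0.33. No member was called, where 19 genes (0.336%) were, so a difference between the agents was not shown for any single member. The smallest p-values were those of *CDC48* (0.56, SE 0.24), *PRE6* (0.51, SE 0.23), *PUP1* (0.63, SE 0.30) and *PRE5* (0.44, SE 0.24), with limma adjusted p-values of 0.697 to 0.706. *RPN4* had 0.02 (SE 0.27). With methanol replicate 1 left out, the median was 0.22, these 4 genes had 0.41 to 0.59 and *RPN4* had 0.18. The member with the smallest p was then *ECM29* (0.92, limma adjusted p = 0.157), which had 0.37 with all arrays kept.

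**Figure D5:**
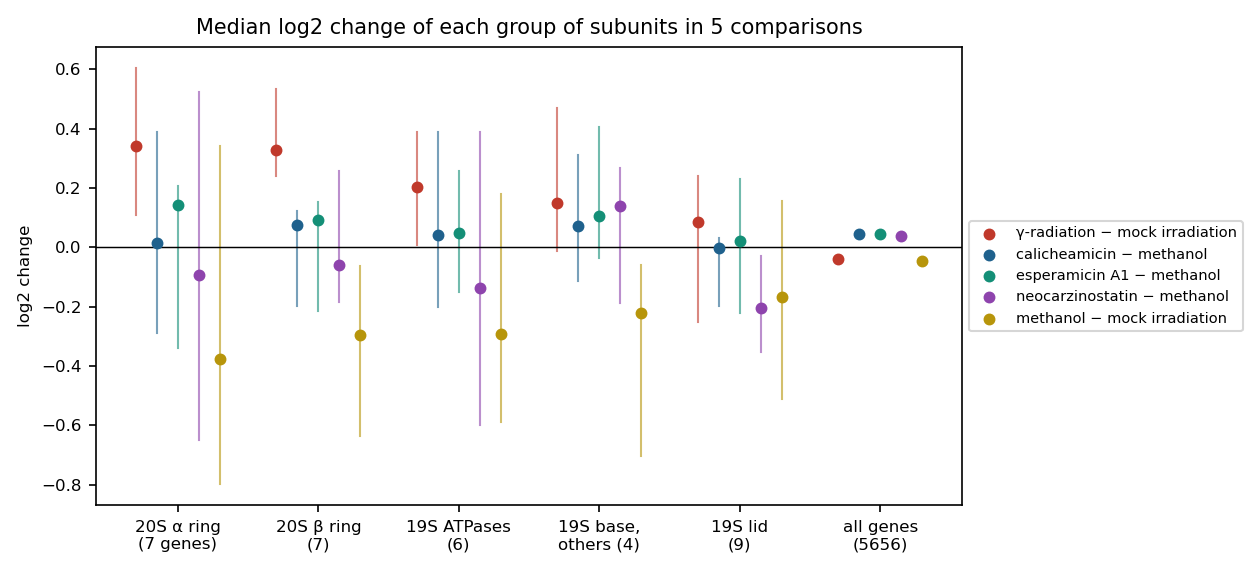
Median log2 change (points) and the range over genes (lines; not drawn for all genes) of 5 groups of subunits in 5 comparisons. γ-radiation minus mock irradiation has medians of 0.34 and 0.33 in the α and β rings and 0.09 in the lid, the lid lies at -0.21 for neocarzinostatin, and methanol minus mock irradiation has negative medians in all 5 groups.

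Of 72 other genes of the pathway, 0 were called after γ-radiation, where 0.902% of all genes were called. That count is not read as a result about them. Over all genes 43.2% lay above 0. Of 11 dedicated assembly chaperones and activators, 9 lay above 0, with a median of 0.31, and the smallest p-values belonged to chaperones of the α ring, *PBA1* (0.66, SE 0.24) and *POC4* (-0.35, SE 0.15), which lay on opposite sides of 0. Of 13 ubiquitin-activating and -conjugating enzymes 9 were above 0 (median 0.09), and the smallest p-values were those of *RAD6* (-0.50, SE 0.16), the conjugating enzyme of post-replication repair, and *UBC5* (0.49, SE 0.17). For 15 shuttles and deubiquitinases the median was -0.00, with *OTU2* at -0.41 (SE 0.14) and *UBP2* at 0.60 (SE 0.23). For 13 Cdc48 cofactors the median was 0.08, with *UBX6* at 0.55 and *UBX5* at 0.41, and for 15 ubiquitin ligases -0.03, with *UFD4* at 0.41 and *SLX5* at -0.26. *RPS31*, a fusion of ubiquitin to a ribosomal protein and the one such gene with a probe set of its own, had 0.30. Of 4 factors known to act on the *RPN4* promoter, *YAP1*, an oxidative stress regulator, had 0.49 (SE 0.18) and *PDR1* 0.07. With methanol against mock irradiation, 5 of these non-members fell: *TMC1*, *HSM3*, *MUB1*, *UBC1* and *UBC13*, by 0.64 to 1.48 on the log2 scale. These are 6.94% of the 72 measured, near the 5.59% of all genes called lower. None was called higher, and *RPS31* (0.55, limma adjusted p = 0.0649) was under the minimum of 1.5-fold.

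Across the 18 arrays, the median Pearson correlation over the 528 pairs of structural subunits was 0.42, compared with 0.01 for all pairs of genes, and 0.15 against 0.02 once the group means were removed. The arrays share the contrast between control families, so these correlations describe the series and are not tests. *PRE7*, *RPT3* and *PRE2* followed the mean of the 33 subunits most closely (r = 0.91, 0.89 and 0.88), and *RPN2* least (-0.07). Within groups *PRE7*, *RPT3*, *PRE2* and *RPN2* had 0.66, 0.64, 0.74 and 0.54. The mean includes the subunit itself, which raises these values, whereas *RPN4* and the genes outside the list are not in it. For *RPN4* the correlation with the subunit mean was 0.34, and 0.23 within groups. Over the 18 arrays, the genes outside the list closest to the subunit mean were *CUR1* (0.89), *APA2* (0.88), *HUG1* (0.88), *TMA10* (0.88) and *YTH1* (0.87). Within groups these had 0.54, 0.67, 0.23, 0.39 and 0.59. Those closest to *RPN4* over the 18 arrays were *RPL27B* (0.88), *NUP84* (0.86), *BUD16* (0.84), *KRR1* (0.84) and *NVJ3* (0.83), with 0.82, 0.83, 0.80, 0.76 and 0.78 within groups.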

How the data were processed

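RNA was labelled and hybridised to 18 one-colour arrays by the authors, who normalized them with RMA (background correction, quantile normalization and summary of probes). The deposited values are RMA intensities on a linear scale, of which log2 was taken. Of 9335 probe sets, 60 are controls, 6504 match 1 gene symbol, 328 several and 2443 none in the platform annotation. No Absent/Present filter was applied. No sequence is shown, since none was used.

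One limma 3.58.1 model (R 4.3.3; lmFit, contrasts.fit, eBayes; 12 residual degrees of freedom) of the 6 groups was fitted to 5656 genes, and p-values were adjusted by the Benjamini-Hochberg method over all of them. Calls needed a change of at least 1.5-fold and an adjusted p up to 0.10, as in the study's methods, whose local pooled error test was rewritten from its description as an alternative. Standard errors and 95% intervals are limma's moderated ones, the median SE for γ-radiation against mock irradiation was 0.197, and the number of arrays limits the precision. An exact permutation test of 3 against 3 arrays cannot go below p = 0.10. The fit was tested on simulated data.

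Members and gene lists were chosen with earlier results of these data known. In each comparison *RPN4*, called members and the 4 members with the smallest p are given in full, with the 2 leading genes of each other list for γ-radiation and the 5 genes most like the subunit mean or *RPN4*. *ADC17* was matched under its synonym *TMA17*. *RPL40A* and *RPL40B* lie only on probe sets with several symbols. The labels number the replicates. Same-numbered arrays deviated together, with correlations of their residuals over 0.1 in each pair, for γ-radiation and mock irradiation (0.65, 0.50, 0.67), for calicheamicin and methanol (0.17, 0.13, 0.40) and for neocarzinostatin and methanol (0.37, 0.18, 0.12). This did not hold for esperamicin A1 and methanol (0.19, 0.35, -0.09), nor for methanol and mock irradiation (-0.16, -0.10, -0.15). Alternatives had replicate number as a blocking factor.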

Additional observations from a re-analysis of the deposited data

How the results depend on the processing

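Values were recomputed in 31 settings (559 values). The γ-radiation comparison was recomputed in 6 settings with a single array left out and in 13 others. The count of members called after γ-radiation stayed at 0 in each of these. When single arrays were left out, the median was 0.17 to 0.26 and 30 to 37 members lay above 0. The core and 19S medians (0.34 and 0.11 with all arrays) were then 0.25 to 0.40 and 0.049 to 0.16. The 19S median was lowest without γ-radiation replicate 1. Counts of members above 0, the core and 19S medians, another *ECM29* probe set, single members without methanol replicate 1 and medians under the local pooled error test were added after seeing the data.

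With methanol against mock irradiation, 7 members were called, but 3 under cyclic loess, 1 with the actin covariate, 1 with the 2 groups fitted alone and 0 by the local pooled error test. Totals over all genes under cyclic loess, with the covariate, with the 2 groups alone and with single arrays left out are not given here. Whether the fall in calls is particular to the members was not tested. Leaving out single arrays gave 4 (without mock replicate 2) to 8, and an adjusted p for *UMP1* of 0.00161 to 0.00688. The median of -0.26 became -0.15 under cyclic loess and -0.30 to -0.13 when arrays were left out, -0.13 being without methanol replicate 2. The 4 members above 0 became 12 under cyclic loess, 7 with the actin covariate, 7 by the local pooled error test and 5 to 8 when arrays were left out (8 without methanol replicate 2, 7 without mock replicate 2). The causes were not tested.

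For esperamicin A1, leaving out arrays gave 0 to 1 members called and medians of -0.029 (without esperamicin replicate 2) to 0.13. Totals over all genes with these arrays left out are not given here. No other median moved beyond the spread between arrays, and 0 members were called in all other comparisons.

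*RPN4* changed sign where its value was near 0. Leaving out single arrays gave -0.36 to 0.015 for γ-radiation, -0.19 to 0.092 for calicheamicin, -0.10 to 0.19 for esperamicin A1, -0.26 to 0.055 for methanol against mock irradiation and -0.21 to 0.18 for γ-radiation against the enediynes. It was -0.10 for esperamicin A1 by the local pooled error test, and 0.060 for methanol against mock irradiation with the actin covariate. None of these passed the test. With neocarzinostatin it stayed between -0.65 and -0.39.

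With the replicate block over all arrays 7 members were called with methanol against mock irradiation, and 8 with the block within each control family, which added *RPN13* (-0.70, adjusted p = 0.0675) and called 12.2% of all genes. For the block over all arrays the total over all genes is not given here, so that count is not read as a result about the members. The pairing changed no other call of a member.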
